A study of Homo sapiens with 12 samples.

Results

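Translation initiation and elongation factors are the proteins that place a ribosome on an mRNA and move it along the coding sequence. They were taken here as every gene of the platform annotation whose symbol starts with EIF or EEF followed by a digit. The rule gave 66 genes with 147 array features, of 43376 features in all, and 59 of these genes with 115 features had values. MIA PaCa-2, a human pancreatic cancer cell line, was exposed to a leaf extract of Achyranthes aspera (LE, 34 µg/mL, an acetone extract taken up in methanol), and cells given 2% methanol were the control. Both RNAs of a time point were hybridized to 1 two-colour array, with 6 arrays for 24 h, 4 for 48 h and 2 for 72 h. LE RNA was labelled with Cy5 on 6 arrays and with Cy3 on the other 6, split evenly at each time point (3, 2 and 1 arrays in Cy5). Every value is a normalised log2 ratio, so a value of 1 is a fold change of 2, and no level in either RNA can be read from it. The cells came from 1 cell line and 1 dose, and each array compares LE with the control of its own time point.

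In the first step of translation eIF2, bound to GTP, brings the initiator tRNA to the small ribosomal subunit together with eIF1, eIF1A, eIF3 and eIF5. eIF4E binds the mRNA cap, eIF4G bridges cap and ribosome, and the helicase eIF4A opens the leader. eIF2B recharges eIF2 with GTP, and kinases that phosphorylate the alpha subunit of eIF2 block that step under stress. In elongation eEF1A delivers the aminoacyl-tRNA, the eEF1B subunits recharge eEF1A, and eEF2 moves the ribosome by a codon. Many of these factors are encoded by mRNAs whose first bases are a C and a run of pyrimidines, the 5′ terminal oligopyrimidine (TOP) element through which mTORC1 controls their translation.

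Some of the factors share the start of their mRNA, a property that the choice of genes did not use. The RefSeq promoter table (GRCh38.p14) held 51 of the 66 genes, and 12 of them (23.5%) started with a C followed by at least 4 bases that were each C or T, read on the strand of the gene from its annotated first base. Of all 35116 entries of that table, counted per entry rather than per gene and not limited to genes on the array, 1429 (4.07%) did so. The first 20 bases of 5 factors with such a run and of 2 without it are shown, the latter because EIF4G1 and EIF5A have values described in full further on, with the run in capitals.
EEF1A1 (chr6:73521013-73521032, minus strand): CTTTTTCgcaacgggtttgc
EEF2 (chr19:3985444-3985463, minus strand): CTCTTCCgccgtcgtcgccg
EIF4B (chr12:53006456-53006475, plus strand): CTTTTgcgttctctttccct
EIF3F (chr11:7987337-7987356, plus strand): CTTCTTTCTCgacaagatgg
EIF2S3 (chrX:24054956-24054975, plus strand): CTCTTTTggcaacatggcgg
EIF4G1 (chr3:184314606-184314625, plus strand): ggaaatggttgtggactacg
EIF5A (chr17:7306999-7307018, plus strand): accacactagcgcgctagaa
The 11 measured factors with the run had a median log ratio over the time points of 0.07 (from -0.32 to 0.26), and the 35 measured factors of the table without it had a median of -0.03 (from -0.53 to 0.65). Of the former 6 were above 0 and 5 below. A match of letters is a description of the annotated start, not a tested element.

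Translation factors had values on the arrays far more often than other genes. By the study's account features that failed its quality criteria on any array were left out, and blanks were read as these. A value was carried by 115 of the 147 factor features (78.2%), against 39.5% of all features and 42.9% of the 31332 features with 1 gene symbol. Features with a value did not all meet 1 of these criteria, opposite change when the dyes are swapped (described further on). By gene the shares were 89.4% of the 66 factors and 48.2% of 18334 genes. Ribosomal proteins, the other part of the translation machinery, had like shares, with 54 of 67 features (80.6%) of the small subunit and 107 of 127 (84.3%) of the large. By that account a blank feature failed a criterion on at least 1 array, which is not the same as an absent mRNA.

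**Figure D1:**
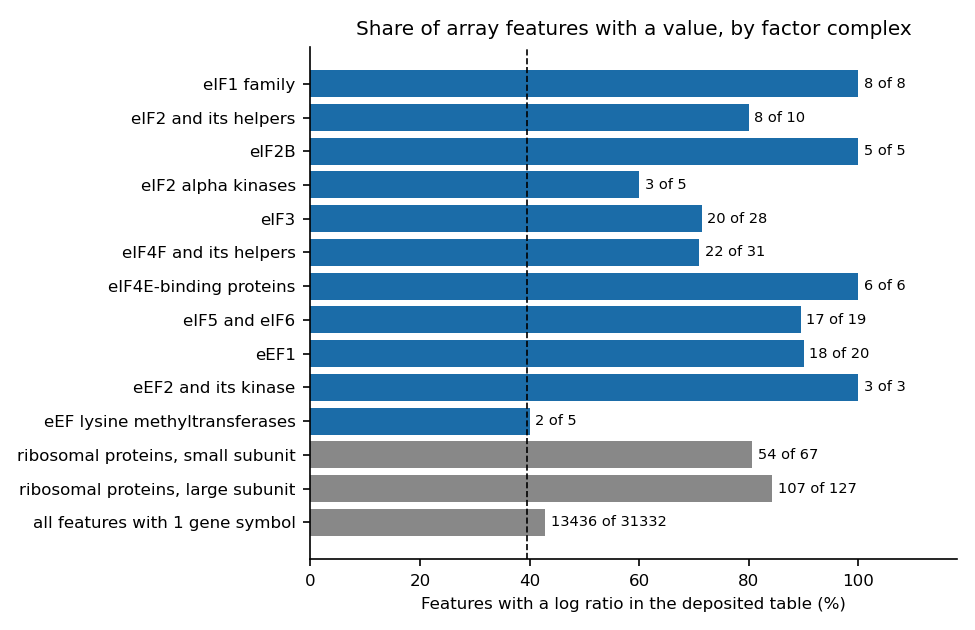
Share of features with a deposited log ratio (%, horizontal axis) by factor complex in blue, with ribosomal proteins and all features with 1 gene symbol in grey. The dashed line marks the 39.5% of all features, and every complex lies above it, the lysine methyltransferases (2 of 5) by the least.

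Within the family the blanks were spread unevenly over the complexes. All features of the eIF1 family (8), eIF2B (5), the eIF4E-binding proteins (6) and eEF2 with its kinase (3) had values, and so did 18 of 20 of eEF1 and 17 of 19 of eIF5 and eIF6. All 13 genes of eIF3 had a value, on 20 of 28 features, and all 10 genes of eIF4F and its helpers, on 22 of 31. The 7 genes with no value were EEF1A2, the eEF1A form of muscle and neurons, EIF2AK3 (PERK), the eIF2 alpha kinase of the endoplasmic reticulum, the methyltransferase genes EEF1AKMT2 and EEF2KMT, the EIF2S3 copy EIF2S3B, and the divergent transcripts EIF2AK3-DT and EIF3J-DT. Another 7 factors had no feature under their own symbol, among them EIF4G3, EIF4EBP3 and EEF1E1. Of the 59 measured genes 33 rested on 1 feature, and 40 had values on every feature they have.

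Across the series the arrays held 17134 features with values, with a median log ratio between -0.0478 and 0.0976 and an SD between 0.478 and 0.985 per array. Arrays of like dye orientation correlated with each other across features in 29 of 30 pairs (median r 0.23, from -0.02 to 0.50), while the 36 pairs of opposite orientation had a median r of -0.03 (from -0.34 to 0.26). For the factor features the medians were 0.20 and -0.04. These correlations run across features, and features do not replicate each other. The direction of the deposited ratios is not stated. They were read as LE over control on every array, after the sample titles (treated against untreated), and this reading is not settled. If they are turned by the dye labels instead, which flips the 6 arrays with LE in Cy3, the mean over the time points changes sign for 31 of the 59 measured factors, and at 24, 48 and 72 h 31, 32 and 28 change sign. Directions, orders and extremes in the text hold for the values as deposited, and turned values stand beside many of them but not all. A value given without its turned value may change as well. The 6 columns with LE in Cy3 were deposited with at most 6 significant digits and the 6 with LE in Cy5 with up to 10, so the number format follows the dye orientation. Of the marker genes of the cell line's origin, the keratins KRT8 and KRT18 and the mesenchymal gene VIM had values, as did the ductal genes KRT19 and MUC1, while KRT7, EPCAM, CDH1 and SOX9 had none, and the 3 endothelial and 4 acinar or endocrine genes on the array were blank. COL1A1, a fibroblast collagen, had values, while COL1A2, DCN and LUM had none, and of the blood genes CD14 and CD79A had values and PTPRC and CD3D none.

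Features of the same transcript did not share their log ratios, on the whole array and among the factors alike. Over all 2060 transcript records with at least 2 measured features (5921 features), the intraclass correlation, which is 1 when copies of a record agree and 0 when they are no more alike than any features, had a median of 0.000466 over the 12 arrays (from -0.0288 to 0.0398). Over the 24 such records of factors (72 features) the median was -0.0728 (from -0.149 to 0.182). By gene (26 genes, 82 features) the median was -0.0542. EIF5B, the GTPase that joins the ribosomal subunits, had 10 features of 1 record, and their SD was 0.532 to 1.3 times the SD of all features of the array (median 0.779). On the second 72 h array these copies ran from -1.49 to 0.55, with 6 of 10 above 0. EEF1D, an exchange factor of eEF1A, had 7 features of 1 record whose SD was 0.448 to 2.17 times that of all features, and EIF4B, the helper of the helicase eIF4A, had 5 with 0.315 to 1.68 times. Of 33 records with at least 2 factor features, 21 had values on all of them, 11 on some and 1 on none. The study lists VWF, an endothelial gene, among those lowered by LE, and such genes had to pass its criteria on all arrays. All features under that symbol are blank here. Blanks did differ by name, with values on 78.2% of factor features against 39.5% of all, while the log ratios of a record did not go together. Whether the deposited values stand in the order of the feature numbers was not tested, so they may belong to other features than those named. Every value given for a factor is that of the rows that carry its name, and holds for the gene only if that order is right.

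**Figure D2:**
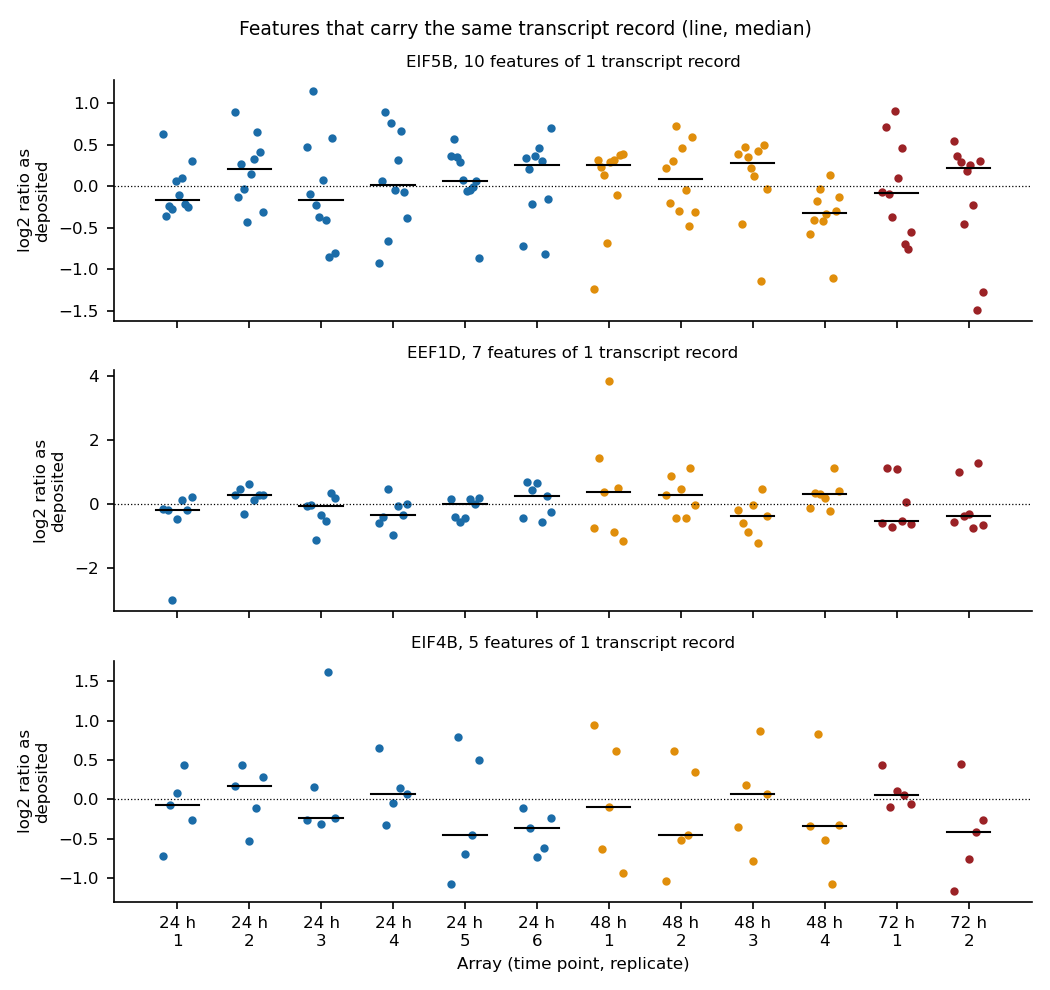
Log2 ratios as deposited (vertical axis) on each of the 12 arrays (horizontal axis, time point and replicate) for the features that share 1 transcript record of EIF5B (10), EEF1D (7) and EIF4B (5), with the median as a line. On each array of EIF5B the copies lie on both sides of 0.

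No factor feature passed FDR 0.01 at 24, 48 or 72 h, in the mean over the time points, in the F test, between dye orientations, or between time points (limma, adjusted over all 17134 features). Over all features the tests at 24, 48 and 72 h, the F test and the differences 48 h minus 24 h and 72 h minus 24 h also called 0% of features. The mean over the time points called 0.0525% (9 features) and the dye orientation 0.268% (46). In simulated data, with residuals shuffled over the arrays, features were shifted on every array by several sizes, 40 of them by 1 on the log2 scale and 40 by 2. The mean over the time points recovered 62.5% of the former and 100% of the latter. The test at 24 h recovered 30% and 90%, that at 48 h 7.5% and 77.5%, and that at 72 h 0% and 25%. These shares hold for the simulated data. Whether they hold for the real arrays, which differ in spread and by dye orientation, was not tested.

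Counts at an unadjusted p under 0.05 lay near those of all features. At 24 h 6 of 115 factor features (5.22%) had such a p, 3 above 0 and 3 below, against 5.78% of all features. At 48 h there were 16 (13.9%), 8 on each side, against 9.29%, and at 72 h 12 (10.4%), 5 above and 7 below, against 8.99%. For the mean over all time points it was 17 (14.8%), 8 above and 9 below, against 15.9%. For 48 h minus 24 h it was 6 (5.22%) against 4.82%, and for 72 h minus 24 h 6 (5.22%) against 3.9%. The factor features had medians of 0.01, -0.01 and 0.08 at the 3 time points, and all features had 0.02, 0.00 and 0.04.

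By gene, 30 of the 59 factors were above 0 in the mean over the time points and 29 below (27 above if turned), from -0.53 to 0.65, and none passed FDR 0.01 (0.0793% of 8828 genes did). At an unadjusted p under 0.05 there were 8 factors (13.6%), 5 above and 3 below, against 15.7% of all genes. No factor lay on 1 side of 0 on all 12 arrays, where 0.419% of all genes did. The 95% interval of a factor's mean over the time points, from the limma fit and not adjusted over genes, had a half-width of 0.32 at the median, and the half-width at 72 h was 0.71. These p-values reflect only how arrays differ, which may be technical, and a factor that missed the threshold is not shown to be unchanged.

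**Figure D3:**
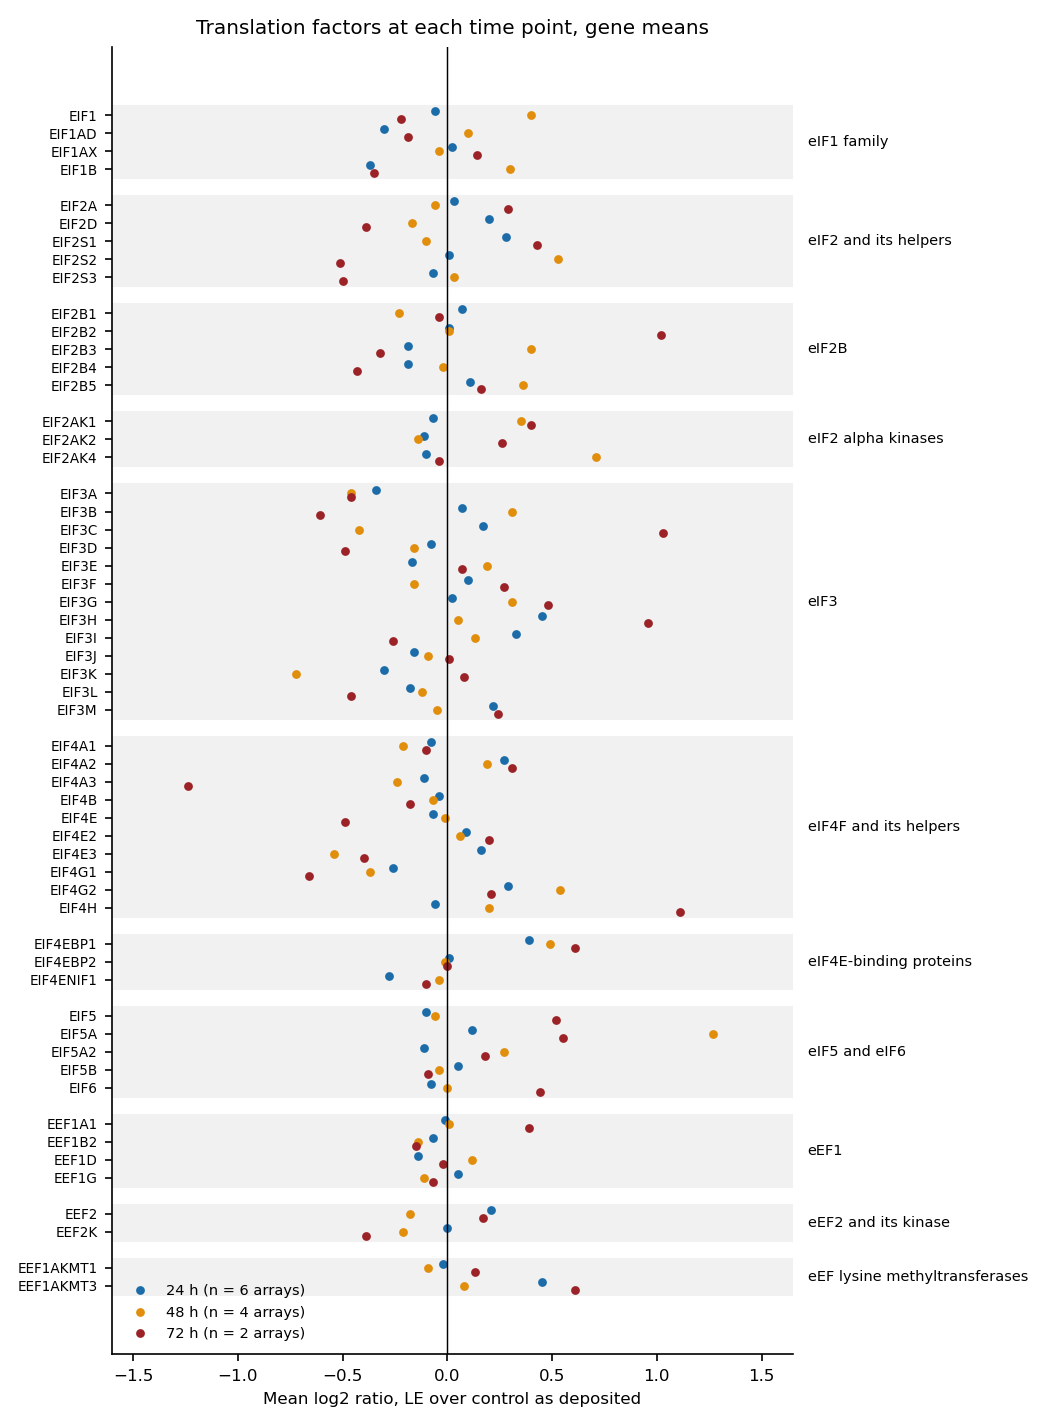
Mean log2 ratio, read as LE over control as deposited (horizontal axis), of each measured factor at 24 h (blue, 6 arrays), 48 h (orange, 4 arrays) and 72 h (red, 2 arrays), grouped by complex. Means at 72 h run from -1.24 for EIF4A3 to 1.11 for EIF4H (turned by the dye labels, from -1.35 to 0.81 at 72 h and from -1.59 to 0.90 at 48 h), and each complex with 3 or more genes has points on both sides of 0.

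Among the factors that bring the initiator tRNA no gene passed the threshold. The 5 genes of eIF2 and its helpers had means over all time points between -0.18 and 0.20, 3 above 0 (2 if turned). EIF2S1, the alpha subunit that the stress kinases phosphorylate, ranged from -0.63 to 1.5 at 24 h (median 0.36), was 1.15, -0.76, 0.00 and -0.79 at 48 h, and was 0.32 and 0.55 at 72 h. Its arrays therefore overlapped 0 at 24 and 48 h and were both above it at 72 h (mean over all time points 0.20 ± 0.22 SE, adjusted p = 0.717, limma, 0.02 if turned). EIF2S2, the beta subunit, had a mean of 0.53 ± 0.63 at 48 h (SD, n = 4, 0.01 if turned) and of -0.51 ± 0.87 at 72 h (SD, n = 2, -0.61 if turned), and its sign over the time points changed with the array left out. EIF2S3, the gamma subunit that binds GTP and tRNA, was at -0.56 and -0.44 at 72 h (mean -0.50, 0.06 if turned). In the eIF1 family EIF1, which guards the choice of the start codon, was 1.21, 0.56, 0.09 and -0.27 at 48 h (mean 0.40, -0.07 if turned) and -0.10 and -0.35 at 72 h, and EIF1B, its paralogue, had a mean of -0.37 ± 0.61 at 24 h (SD, n = 6).

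The exchange factor eIF2B and the kinases that act on it through eIF2 had no gene past the threshold. EIF2B2, the beta subunit of eIF2B, had means of 0.01 at 24 and 48 h and values of 1.69 and 0.35 at 72 h, with a mean of 1.02 (adjusted p = 0.576, limma) that was -0.67 if turned. EIF2B5, the catalytic subunit, was 1.18, 1.17, -0.89 and -0.03 at 48 h (mean 0.36, -0.22 if turned). EIF2AK4 (GCN2), the kinase that senses uncharged tRNA, was above 0 on 4 of 4 arrays at 48 h (1.53, 0.62, 0.64 and 0.05), with a mean of 0.71 ± 0.61 (SD, n = 4, adjusted p = 0.333, limma), and -0.08 if turned. At 24 h its mean was -0.10 and at 72 h -0.04, and the fourth 48 h array lay within the 24 h values. The difference 48 h minus 24 h had an adjusted p of 0.995 (limma). EIF2AK1 (HRI), the kinase that responds to low heme, had means of -0.07, 0.35 and 0.40 at the 3 time points (0.06, 0.03 and 0.05 if turned).

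As deposited, the feature farthest from 0 over the time points was 1 of EIF3A, the scaffold subunit of eIF3. At 24 h it ranged from -0.89 to 0.06 (median -0.37), at 48 h it was -0.66, -0.88, -1.43 and -1.05, and at 72 h -0.86 and -1.53. It was thus below 0 on 11 of 12 arrays, with a mean over the time points of -0.88 ± 0.14 (SE, 95% interval -1.18 to -0.57). Its adjusted p was 0.0150 in limma, which misses FDR 0.01, and it was the 1 factor feature of 213 features (1.24% of all) that pass FDR 0.05. Without the first or the second 72 h array its adjusted p was 0.0999 or 0.0937, past 0.05. It was singled out after its values were seen. The mean was -0.89 on the arrays with LE in Cy5 and -0.61 on those with LE in Cy3, so both orientations gave the same sign as deposited, and the value turned by the dye labels was -0.18 (adjusted p = 0.751). With ratios turned, the feature farthest from 0 was that of EIF4G2 (-1.41, adjusted p = 0.0440, limma). The other EIF3A feature, of a different transcript record, had a mean of 0.04 ± 0.19 (SE) with 6 of 12 arrays above 0. The gene mean was -0.42 ± 0.13 (SE, adjusted p = 0.138).

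The other eIF3 subunits lay on both sides of 0, and 7 of the 13 genes were above it in their mean over all time points (4 if turned). EIF3H, a regulatory subunit, was above 0 on 10 of 12 arrays, from -0.11 to 1.13 at 24 h (median 0.39), at -0.83, 0.30, 0.14 and 0.59 at 48 h, and at 1.17 and 0.76 at 72 h. Its mean was 0.49 ± 0.15 (SE, 95% interval 0.16 to 0.81, adjusted p = 0.130, limma). Turned by the dye labels it was -0.02. EIF3C, a core subunit that contacts eIF1, had a mean of -0.42 at 48 h and values of 1.16 and 0.89 at 72 h, 1.03 ± 0.19 (SD, n = 2, adjusted p = 0.303, limma), where the turned mean was -0.13. The subunits of 1 complex thus had means at 72 h from -0.61 (EIF3B, -0.03 if turned) to 1.03.

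**Figure D4:**
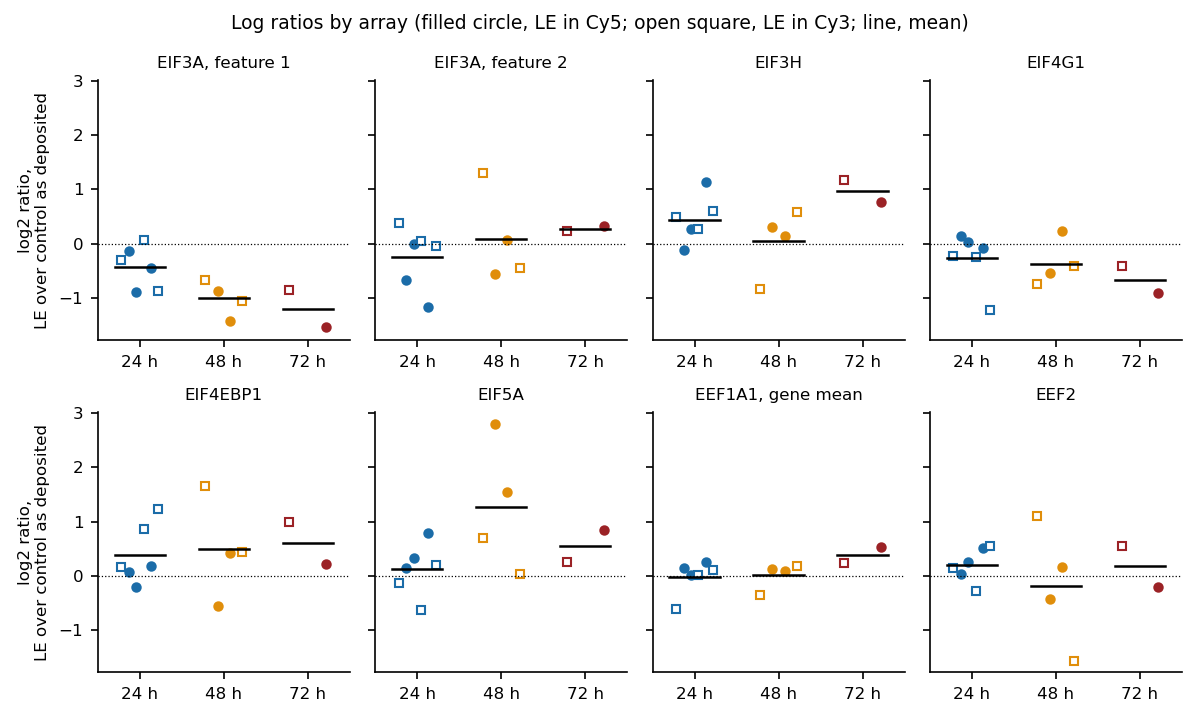
Log2 ratio, read as LE over control as deposited (vertical axis), on each array by time point (horizontal axis) for both EIF3A features and 6 further factors, with filled circles for LE in Cy5, open squares for LE in Cy3 and lines for the means. The first EIF3A feature is below 0 on 11 of 12 arrays, and the second has 6 arrays above 0.

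Of the cap-binding complex eIF4F and its helpers, 4 genes were above 0 and 6 below in the mean over the time points (3 above if turned). EIF4G1, the scaffold that joins eIF4E, eIF4A and eIF3, ranged from -1.22 to 0.15 at 24 h (median -0.15), was -0.74, -0.54, 0.24 and -0.42 at 48 h, and -0.42 and -0.90 at 72 h. It lay below 0 on 9 of 12 arrays and had a mean of -0.43 ± 0.15 (SE, 95% interval -0.74 to -0.12, adjusted p = 0.165, limma), and 0.09 if turned. EIF4E, which binds the cap, had a mean near 0 at 24 h (-0.07) and 48 h (-0.01) and values of -0.45 and -0.53 at 72 h (mean -0.49, adjusted p = 0.502, limma, -0.04 if turned). EIF4A1, the main helicase, had features from -0.59 to 0.40 and a gene mean of -0.13 ± 0.15 (SE, 0.36 if turned). EIF4A3, a related helicase that works in the exon junction complex rather than in eIF4F, was -0.92 and -1.56 at 72 h (mean -1.24, adjusted p = 0.428, limma, -0.32 if turned). EIF4H, which stimulates eIF4A, was at 0.29 and 1.92 at 72 h, and 1 of its 2 features was at 3.31 on the second 72 h array while the other was at 0.52.

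The eIF4E-binding proteins hold eIF4E away from eIF4G until mTORC1 phosphorylates them. EIF4EBP1 was above 0 on 10 of 12 arrays, from -0.21 to 1.24 at 24 h (median 0.18), at 1.66, -0.55, 0.43 and 0.44 at 48 h, and at 1.0 and 0.22 at 72 h. Its mean was 0.50 ± 0.20 (SE, 95% interval 0.07 to 0.92, adjusted p = 0.240, limma). The mean was 0.90 on the arrays with LE in Cy3 and 0.03 on those with LE in Cy5, and turned by the dye labels the value was -0.44. EIF4EBP2 had 4 features between -0.31 and 0.20 and a gene mean of 0.00. EIF4ENIF1, which carries eIF4E into the nucleus, was at -0.14 ± 0.18 (SE, 0.40 if turned).

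The group of EIF5, EIF5A, EIF5B and EIF6 held the gene with the highest mean over the time points, EIF5A, both as deposited and turned by the dye labels. EIF5A, which eases the ribosome past stretches that stall it and carries the modified residue hypusine, ranged from -0.62 to 0.79 at 24 h (median 0.17), was 0.70, 2.80, 1.55 and 0.04 at 48 h, and 0.25 and 0.85 at 72 h. It was above 0 on 10 of 12 arrays and on 4 of 4 at 48 h, where the mean was 1.27 ± 1.19 (SD, n = 4, adjusted p = 0.297, limma). Its mean over the time points was 0.65 ± 0.22 (SE, 95% interval 0.18 to 1.12, adjusted p = 0.165), or 0.50 (adjusted p = 0.320) if turned, and it was 1.08 on the arrays with LE in Cy5 and 0.08 on those with LE in Cy3. EIF5A had 1 measured feature. EIF5, which triggers GTP hydrolysis by eIF2, was near 0 at 24 h (-0.10) and 48 h (-0.06) and at 0.61 and 0.43 at 72 h (mean 0.52, adjusted p = 0.567, limma, -0.09 if turned). EIF5B, over its 10 features, had a mean of -0.03 ± 0.09 (SE), and EIF6, which keeps free large subunits apart from small ones, had 0.12 ± 0.14 (SE).

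The gene means of the elongation factors lay near 0. EEF1A1, among the most abundant proteins of a cell, had 5 features with means between 0.05 and 0.19, all above 0, and a gene mean of 0.13 ± 0.11 (SE, adjusted p = 0.620, limma). The gene ranged from -0.60 to 0.25 at 24 h (median 0.07), was -0.35, 0.12, 0.10 and 0.18 at 48 h, and 0.24 and 0.54 at 72 h, so 10 of 12 arrays were above 0. The first replicate at 24 and at 48 h was the low one in both groups. EEF1B2, EEF1D and EEF1G, the eEF1B subunits, had gene means of -0.12, -0.01 and -0.04, but the 8 features of EEF1D ran from -0.48 to 0.53. EEF2, the translocase, ranged from -0.27 to 0.56 at 24 h (median 0.21), was 1.10, -0.42, 0.16 and -1.56 at 48 h and 0.55 and -0.20 at 72 h, on both sides of 0 at each time point (mean 0.07 ± 0.20 SE, adjusted p = 0.910, limma). EEF2K, the kinase that switches eEF2 off, was above 0 on 2 of 12 arrays, with a mean of -0.20 ± 0.11 (SE, adjusted p = 0.418, limma, 0.03 if turned).

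EEF1AKMT3, a lysine methyltransferase of eEF1A, had the smallest adjusted p of the factors' gene means as deposited, and with ratios turned EIF4G2 had it (0.0489). It was above 0 on 6 of 6 arrays at 24 h, from 0.09 to 0.64 (median 0.48), at -0.45, 0.30, -0.01 and 0.50 at 48 h, and at 0.56 and 0.66 at 72 h. The mean over the time points was 0.38 ± 0.11 (SE, 95% interval 0.14 to 0.62, adjusted p = 0.113, limma), from 1 measured feature, and 0.06 (adjusted p = 0.872) if turned. EEF1AKMT1, which also methylates eEF1A, was at 0.01 ± 0.18 (SE).

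Values in the family differed between the dye orientations, but no more often than those of all features. If the ratios are turned by the dye labels, this same difference is read as the effect of LE. The dye differences and the turned values are therefore not separate results. Between dye orientations 28 factor features (24.3%) had an unadjusted p under 0.05, 15 higher with LE in Cy5 and 13 lower, against 27.2% of all features. Of the 115 factor features 7 passed FDR 0.05, where 8.38% of all features did. EIF4G2, a relative of eIF4G that lacks the part that binds eIF4E, had a mean of -1.04 on the 6 arrays with LE in Cy5 and 1.76 on the 6 with LE in Cy3, a difference of -2.80 ± 0.58 (SE, adjusted p = 0.0169, limma). Its mean over the time points was 0.35 as deposited and -1.41 if turned. One feature of EIF5 differed by -1.77 ± 0.33 (adjusted p = 0.0135, limma), below 0 on 6 of 6 arrays in 1 orientation and above 0 on 5 of 6 in the other. The other EIF5 features differed by 0.43 and 0.14. Of the 3 EIF4E features 1 differed by -1.14 and another by 0.81, in opposite directions. EIF4A3 and EIF2S2 each had a feature that was below 0 on all arrays with LE in Cy5 (differences -1.08 and -0.89). Of the 115 factor features 49 (42.6%) had the same sign in both orientations as deposited, against 43.6% of all features. The study's quality criteria include that a feature changes in the opposite direction when the dyes are swapped. Read as LE over control, a feature meets it with the same sign in both orientations, and if turned with opposite signs. At 72 h, with 1 array per orientation, 54.1% of all features had the same sign on both arrays. Under either reading many features with a value therefore miss it at that time point. How the study applied it was not tested. If the ratios were turned by the dye labels, no factor feature would pass FDR 0.01 either, and 20 would have an unadjusted p under 0.05 in the mean over the time points, as would 3513 of 17134 features in all.

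**Figure D5:**
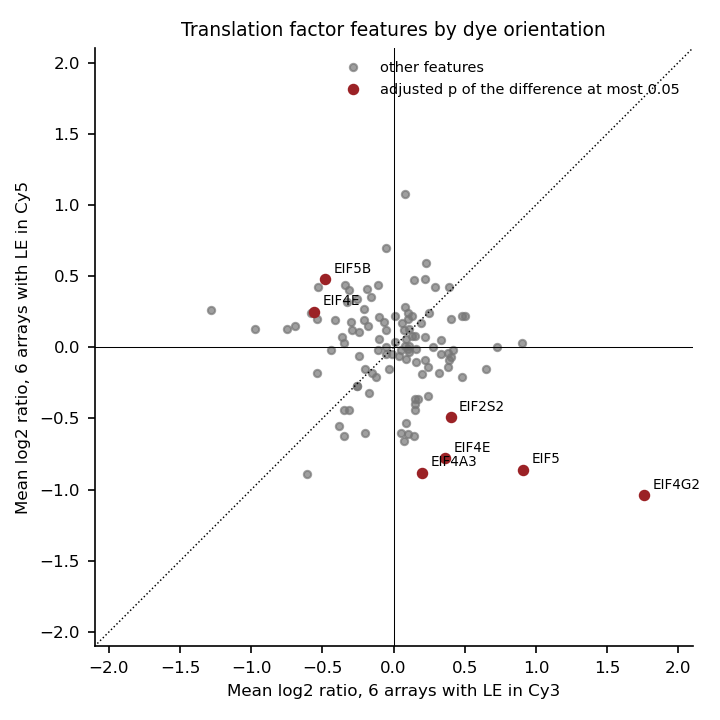
Mean log2 ratio as deposited of each factor feature on the 6 arrays with LE in Cy3 (horizontal axis) and on the 6 with LE in Cy5 (vertical axis), with the 7 features whose difference passes FDR 0.05 in red and the line of equal values dotted. The Y-linked EIF1AY is not drawn, and the red points lie on opposite sides of 0 in the 2 orientations.

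The genes around the factors in translation gave no call either. Of 126 measured genes in 8 lists (release and recycling factors, poly(A) binding proteins, mTORC1 and its TOP mRNA regulators, integrated stress response targets, aminoacyl-tRNA synthetases, mitochondrial factors and ribosomal proteins of both subunits) 0 passed FDR 0.01 at any time point or in the mean over them, where 8 above 0 and 8 below had an unadjusted p under 0.05 (12.7%, against 15.7% of all genes). Integrated stress response targets are the genes that ATF4 turns on when eIF2 is phosphorylated. Of these, 9 of 11 were above 0 in the mean over the time points, against 53.5% of all genes, and 5 of 11 if turned. Their median was 0.26 in that mean (-0.06 if turned) and 0.02 at 48 h, where 6 of 11 were above 0. An unadjusted p under 0.05 was reached by 2 of them (18.2%), near the share over all genes. HERPUD1, a protein of the endoplasmic reticulum that rises under such stress, was above 0 on 9 of 12 arrays (mean 0.26 ± 0.14 SE, adjusted p = 0.403, limma, 0.05 if turned). Poly(A) binding proteins were above 0 in 6 of 7 genes (5 if turned), with a median of 0.10, and PABPC4 was above 0 on 11 of 12 arrays (0.19 ± 0.11 SE, adjusted p = 0.411, 0.09 if turned). The ribosomal proteins had medians of -0.01 (23 genes) and -0.02 (42 genes). RPL27, of the large subunit, was below 0 on 10 of 12 arrays (-0.69 ± 0.15 SE, adjusted p = 0.0431, limma, 0.11 if turned), and RPS28, of the small subunit, was above 0 on 9 (0.49 ± 0.17 SE, adjusted p = 0.173, 0.19 if turned). TSFM, the mitochondrial elongation factor that recharges EF-Tu, was above 0 on 11 of 12 arrays (0.65 ± 0.16 SE, adjusted p = 0.0596, 0.32 if turned). ABCE1, which splits ribosomes after termination, was at -0.25 ± 0.11 (SE), RARS1, the arginyl-tRNA synthetase, at 0.27 ± 0.11 and RPTOR, the mTORC1 scaffold, at -0.24 ± 0.34, and turned they were at 0.07, -0.05 and 0.22.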

How the data were processed

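The study scanned the arrays on a GenePix scanner, left out features that failed its quality criteria on any array, and normalised with lowess within arrays and quantiles between them in limma (version not given in the sources used here). The deposited values are log2 ratios of the 2 channels, and empty features were read as those that failed. All 12 columns belonged to a sample of the labels. Genes were named through the platform table, with 1 symbol per feature, and the mean of a gene's features was its value. Blank rows entered no test.

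All 17134 features with values were fitted with limma 3.58.1 in R 4.3.3, with 1 term per time point. P-values were adjusted by the Benjamini-Hochberg method over all of them, at the study's threshold of FDR 0.01. The study reports genes past that threshold at every time point, while no feature passed here at 24, 48 or 72 h. It first filtered genes by comparing signals with those of the dye-swap arrays, and no such filter was applied here. The cause of the difference was not tested. Tests were made at each time point, for the mean over the time points, by the moderated F test, between dye orientations and between time points. The fit was tested on simulated data. The number of arrays limits the precision, and the values hold no brightness. The labels call the arrays of a time point biological replicates, while the methods describe cultures in duplicate, so how many separate cultures the arrays stand for is not known and p-values measure the spread between arrays. Named were 17 core factors and the 2 genes of each complex with the smallest F test p. Any factor on 1 side of 0 on all arrays or past the threshold was to be named, and 1 gene per neighbouring list by the same p. Further members are given as the extremes of their group, or for their first bases, dye difference or copies of 1 record. EEF1G and EIF4EBP2 are given beside the named members of their group. The members, complexes and lists were chosen with earlier results of these data known. The first bases of genes came from RefSeq (GRCh38.p14). Alternatives were ratios turned by the dye labels, a dye term, a replicate block, other normalizations, a robust variance prior, array weights, separate time points, other thresholds, gene means and each array left out.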

Additional observations from a re-analysis of the deposited data

Results flagged for a closer look

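There were 66 sets of 4 or 6 arrays at 24 or 48 h (31 named factors, the single EIF3A feature and the median of all factor features). Of these, 8 held an array far from the others (Dixon's test at its 95% critical value). That value flags about 1 in 20 independent normal sets, or 3.3 of 66. The sets share arrays, the EIF3A feature is part of the EIF3A gene mean, and other genes were not counted. The 8 sets are therefore not shown to be an excess. EIF3A as a gene mean was 0.32 on the first 48 h array, with the nearest at -0.68. EEF1A1 was -0.60 on the first 24 h array (nearest 0.01) and -0.35 on the first 48 h array (nearest 0.10), and EEF1B2 was 0.73 on the fourth 48 h array (nearest -0.36). EIF4G1 was -1.22 on the sixth 24 h array (nearest -0.24), where EIF1AD was 0.38 (nearest -0.35). EEF2K was 0.52 on the fourth 24 h array (nearest -0.01), where EIF2B3 was -1.79 (nearest -0.23). No difference between time points passed FDR 0.01 for a factor.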

How the results depend on the processing

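The count of 0 factor features at FDR 0.01 was the same at 24, 48 and 72 h, in the F test and between time points under every alternative run. In the mean over the time points 1 feature passed with array weights, at FDR 0.05, or with a replicate block and a dye term. Between dye orientations 7 passed at FDR 0.05, 1 with arrays centred and scaled or quantile-normalized, 2 with array weights, and 0 to 2 with an array left out. Arrays of the same replicate number at different times had deviations correlated at 0.06 to 0.49 in 8 pairs, 5 above 0.1. The number follows the dye orientation, so what these arrays share cannot be told apart from the dyes. The fit estimated a correlation within replicate numbers of 0.187 over features, and of -0.0718 with a dye term. With that number as a replicate block 3 passed between dye orientations and 0 elsewhere. Fitting each time point alone gives no mean, F test or difference. The share with a value was 78.2% by feature and 89.4% by gene. For the average of the 3 time points, the median of the factor features was between -0.034 and 0.029 under the alternatives run.

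The EIF3A feature was at -0.99 to -0.76 with an array left out (adjusted p 0.0122 to 0.0999), highest without the first 72 h array, and with a dye term at an adjusted p of 0.0106; these settings were chosen after its values were seen. Of 31 named factors, 16 changed sign in the mean over the time points when turned by the dye labels: EIF1 (-0.08), EIF2B5 (-0.18), EIF4G1 (0.09), EIF4A1 (0.36), EIF4EBP1 (-0.44), EIF5 (-0.18), EIF5B (0.03), EEF2 (-0.09), EEF2K (0.03), EIF1AD (0.05), EIF2S2 (-0.29), EIF2B2 (-0.04), EIF2B3 (0.20), EIF3C (-0.03), EIF3H (-0.02) and EIF4ENIF1 (0.40). Values near 0 changed sign with normalization: centred arrays put EIF2S2 and EEF1AKMT1 at -0.02, centred and scaled arrays EIF1 at -0.03 and EEF2 and EIF2S2 at -0.02, quantile-normalized arrays EIF1 and EIF2B3 at 0.00, and the replicate block EEF1AKMT1 at 0.00. With an array left out EIF1 ranged from -0.05 to 0.11, EIF5B from -0.05 to 0.01, EEF1B2 from -0.27 to 0.03, EEF2 from -0.07 to 0.22, EIF2S2 from -0.19 to 0.22, EIF2B3 from -0.20 to 0.13, EEF1D from -0.05 to 0.04 and EEF1AKMT1 from -0.07 to 0.09. None of these passed FDR 0.01 under any setting, and the cause was not tested. The 2 arrays at 72 h limit that time point most.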
